A study of Homo sapiens with 9 samples.

Results

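The genes described here encode fatty acid desaturases and elongases: SCD, SCD5, FADS1, FADS2, FADS3, ELOVL1, ELOVL2, ELOVL5, ELOVL6 and ELOVL7. They were chosen by name as members of these enzyme families, with earlier results of these data known, and are 10 of the 58735 genes in the files. Their RNA was measured in MDA-MB-231 cells, a human triple-negative breast cancer line, in 9 RNA-seq libraries. Vehicle-treated cells (DMSO, the solvent of the drugs) gave 3 libraries, cells treated with erastin gave 3, and cells treated with RSL3 gave 3. The study describes the treated cells as survivors of rising drug concentrations and names them erastin-R and RSL3-R, and asks which genes go with resistance to ferroptosis, a cell death driven by iron-dependent peroxidation of phospholipids. Erastin blocks the cystine transporter that feeds glutathione synthesis, and RSL3 inhibits GPX4, the enzyme that reduces lipid peroxides. No other genotype or agent is named for any library. Neither the doses nor the times of these 9 libraries are in the labels, all come from a single cell line, and nothing says that the 3 libraries of a condition came from separate cultures, so the p-values below measure the spread between these libraries, which may be technical.

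A fatty acid leaves fatty acid synthase saturated and is then lengthened and desaturated in the endoplasmic reticulum. SCD and SCD5 place the first double bond and so make monounsaturated acids such as oleate, whereas FADS2 and FADS1 add double bonds to the essential polyunsaturated acids in turn, with elongation by ELOVL5 and ELOVL2 between and after these steps. Phospholipids with polyunsaturated chains are the ones that peroxidize in ferroptosis, and monounsaturated chains are far less easily oxidized. The study also counts FADS2, with SCD, among the enzymes that make monounsaturated acids. It reports that knockdown of either made triple-negative cells more sensitive to erastin and RSL3.

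Each member lies on the GRCh38 assembly as a protein-coding gene. SCD is on chromosome 10 (100347124 to 100364834, plus strand), SCD5 on chromosome 4 (82629539 to 82798857, minus) and ELOVL6 on the same chromosome (110045846 to 110199199, minus). The 3 FADS genes form a cluster on chromosome 11, with FADS2 on the plus strand (61792980 to 61867354) and FADS1 (61799625 to 61829318) and FADS3 (61873519 to 61892051) on the minus strand. ELOVL1 is on chromosome 1 (43363397 to 43368074, minus), ELOVL2 and ELOVL5 are on chromosome 6 (10980759 to 11044314 and 53267398 to 53349179, both minus) and ELOVL7 is on chromosome 5 (60751791 to 60844389, minus).

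Sequences from the windows before the starts of SCD, FADS1, FADS2 and FADS3 are shown because the results turn on these genes. FADS1 and FADS2 have RefSeq starts near each other on opposite strands, and each gene runs across the start of the other. Each printed sequence is the longest stretch outside the exons of GENCODE 29 within the RefSeq promoter window (GRCh38.p14) of the 250 bases before the start. The bases nearest the start were thereby left out for SCD (109 bases), FADS1 (194) and FADS2 (148), and none for FADS3. The sequences are written from 5′ to 3′ on the strand of the gene. Capitals mark CCAAT (bound by NF-Y) and GGGCGG (bound by Sp1) on either strand, which read ATTGG and CCGCCC on the reverse strand. For FADS2, which has a pair of RefSeq starts, the window of the downstream start is given.
SCD (chr10:100346983-100347123, plus strand): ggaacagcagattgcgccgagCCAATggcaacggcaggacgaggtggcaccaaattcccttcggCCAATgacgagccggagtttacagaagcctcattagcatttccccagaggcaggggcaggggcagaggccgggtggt
FADS1 (chr11:61817198-61817253, minus strand): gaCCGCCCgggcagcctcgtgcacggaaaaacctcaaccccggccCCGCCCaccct
FADS2 (chr11:61816154-61816255, plus strand): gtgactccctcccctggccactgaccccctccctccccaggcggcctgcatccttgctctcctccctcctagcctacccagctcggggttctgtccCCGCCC
FADS3 (chr11:61891546-61891795, minus strand): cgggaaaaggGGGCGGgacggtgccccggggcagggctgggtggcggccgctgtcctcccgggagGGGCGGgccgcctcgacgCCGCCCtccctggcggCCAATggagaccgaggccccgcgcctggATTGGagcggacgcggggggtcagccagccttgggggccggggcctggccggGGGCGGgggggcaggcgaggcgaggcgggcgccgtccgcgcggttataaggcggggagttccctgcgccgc

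In the full windows of 250 bases, SCD had 2 CCAAT and 2 GGGCGG matches, FADS1 had 2 GGGCGG matches, FADS2 had 1 GGGCGG match before its downstream start and none of these motifs before the other, and FADS3 had 2 CCAAT and 4 GGGCGG matches. CCAAT was found in 32% of the 35116 RefSeq windows and GGGCGG in 42.6%. The sterol regulatory element TCACNCCAC, the binding motif of the SREBP factors that drive lipid synthesis genes, was searched on both strands too. It was in none of the members' windows and in 0.883% of all windows. With so low a share over all windows, finding none in these few windows says little. Only this exact form was searched, within 250 bases, so its absence does not show that these genes lack such an element. The windows of FADS1 and FADS2 were 600 bases apart, or 801 bases for the other FADS2 start. The stretch between them lies downstream of both starts, within both genes. The gene spans given above begin farther upstream for each of these genes.

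The libraries held between 15405102 and 17273464 counts, so that 3 counts, the limit that a count of 0 allows, correspond to 0.1737 to 0.1947 CPM (counts per 1000000 counts). This limit and the counting intervals cover counting error only. All 10 members passed the filter on low counts, with 16188 genes tested in all. Levels are given below as CPM after TMM normalization, which are shares of the sequenced RNA. The erastin-R replicate 1 library stood apart: its log2 CPM values correlated with the other erastin-R libraries at r = 0.9858 and 0.9861, against 0.9914 to 0.9924 for the remaining pairs within a condition, and its squared difference from them was 24.07 and 23.36 times the counting error, against 2.429 to 5.284. Results were therefore recomputed without it. Markers of the line went with its label, with VIM, CD44 and EGFR together at 2089 to 2396 CPM and ESR1, PGR, CDH1 and EPCAM together at 1.463 to 6.02 CPM.

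Markers of other cell types (PTPRC and CD3E for leukocytes, PECAM1 for endothelium, ALB for liver) moved with the conditions at low levels. Summed, they gave 10.12 to 11.24 CPM in vehicle, 1.527 to 2.799 CPM in erastin-R and 13.27 to 15.66 CPM in RSL3-R cells. Of these 4 genes 2 were tested, and nearly all of the sum was PECAM1, with 154 to 177 counts in vehicle, 20 to 36 in erastin-R and 199 to 222 in RSL3-R libraries. PECAM1 passed the edgeR test in both treated conditions (log2 fold change -2.47 with erastin and 0.36 with RSL3). PTPRC had 4 to 11 counts in vehicle, 3 to 11 in erastin-R and 19 to 24 in RSL3-R libraries. It passed the test with RSL3 (log2 1.67 ± 0.46 SE, adjusted p = 0.008175) and not with erastin (-0.29, adjusted p = 0.6854). CD3E had 0 to 4 counts and 0 in all erastin-R libraries, and ALB 0 to 6. The epithelial cadherin CDH1 rose in RSL3-R cells from 14 to 27 counts to 53 to 59 counts (log2 fold change 1.58 ± 0.33 SE, adjusted p = 0.001298). Their part in the results was not tested. All libraries come from a single cell line, and bulk RNA does not show which of its cells gave these counts.

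SCD, the main desaturase of saturated fatty acids, was the most abundant member per length (FPKM) in all 9 libraries and moved in opposite directions in the treated cells. Vehicle libraries had 889.8, 917.6 and 940.9 CPM, erastin-R libraries 574.2, 571.9 and 575 CPM, and RSL3-R libraries 1187, 1190 and 1178 CPM. The conditions did not overlap, with every erastin-R library below and every RSL3-R library above all vehicle libraries. SCD fell by 0.68 on the log2 scale (± 0.05 SE) in erastin-R cells (edgeR quasi-likelihood test, Benjamini-Hochberg adjusted p = 9.666e-08) and rose by 0.37 ± 0.05 in RSL3-R cells (adjusted p = 2.851e-05). Compared directly, SCD was 2.065-fold higher in RSL3-R than in erastin-R cells (log2 1.05 ± 0.05 SE, 95% interval 0.94 to 1.15, adjusted p = 3.165e-09). With that replicate 1 library left out, these log2 fold changes were -0.68, 0.37 and 1.05, and all passed the test.

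SCD5, a related stearoyl-CoA desaturase that rodents lack, was far lower and fell in both treated conditions. Its libraries had 35.29, 37.43 and 36.58 CPM in vehicle, 23.47, 29.14 and 26.14 CPM in erastin-R, and 26.69, 23.37 and 26.12 CPM in RSL3-R cells. All 6 treated libraries were below all vehicle libraries, and the treated conditions overlapped each other. The log2 fold change was -0.47 ± 0.09 (SE) with erastin (adjusted p = 6.282e-04) and -0.52 ± 0.09 with RSL3 (adjusted p = 3.531e-04). Between the treated conditions the difference was -0.05, with a 95% interval of -0.25 to 0.15 (adjusted p = 0.7049). The stearoyl-CoA desaturases thus moved together with erastin and apart with RSL3. SCDP1, a pseudogene of SCD, had 0 to 2 counts. The study reports using uniquely mapped reads, so this low count does not show whether reads that fit both genes were lost.

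FADS2, which starts the desaturation of linoleate and alpha-linolenate, had the largest fall of the 10 members in erastin-R cells. Vehicle libraries had 463.2, 442.1 and 436.9 CPM, erastin-R libraries 174, 205.3 and 217.4 CPM, and RSL3-R libraries 352.2, 369.4 and 360 CPM. The conditions did not overlap, and the order was vehicle, RSL3-R and erastin-R from high to low. FADS2 was 2.249-fold lower in erastin-R cells (log2 -1.17 ± 0.07 SE, adjusted p = 2.592e-08) and 1.241-fold lower in RSL3-R cells (log2 -0.31 ± 0.07, adjusted p = 0.002795). It was higher in RSL3-R than in erastin-R cells by 0.86 ± 0.07 on the log2 scale (adjusted p = 7.292e-07). Without erastin-R replicate 1, the lowest of its condition, the fall in erastin-R cells was -1.08 and the difference between treated conditions 0.77, and both passed the test.

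FADS1, which adds the next double bond to the chains that FADS2 and ELOVL5 have made, fell in erastin-R cells. Its libraries had 369.6, 359.6 and 358 CPM in vehicle, 229.4, 213.6 and 209 CPM in erastin-R, and 367.9, 373.6 and 383 CPM in RSL3-R cells. The erastin-R libraries were below all others, and the vehicle and RSL3-R libraries overlapped. The log2 fold change was -0.74 ± 0.06 (SE) in erastin-R cells (adjusted p = 1.187e-07). In RSL3-R cells it was 0.05 with a 95% interval of -0.07 to 0.17 (adjusted p = 0.4899), and RSL3-R cells were higher than erastin-R cells by 0.79 ± 0.06 (adjusted p = 1.169e-07).

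FADS3, a member of the same cluster that acts on sphingoid bases, was the only 1 of the 10 members that rose in both treated conditions. Vehicle libraries had 91.93, 93.01 and 82.47 CPM, erastin-R libraries 157.5, 200.8 and 205.2 CPM, and RSL3-R libraries 137.1, 146.7 and 142.4 CPM. No condition overlapped another, although erastin-R replicate 1 was much nearer to the RSL3-R libraries than the other erastin-R libraries were. FADS3 rose 2.107-fold in erastin-R cells (log2 1.08 ± 0.09 SE, adjusted p = 3.627e-07) and 1.593-fold in RSL3-R cells (log2 0.67 ± 0.09, adjusted p = 3.436e-05). RSL3-R cells were lower than erastin-R cells by -0.40 ± 0.09 on the log2 scale (adjusted p = 0.001964). Leaving out that erastin-R library gave 1.19 in erastin-R cells and -0.52 between the treated conditions, again past the test.

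FADS1 and FADS2 share 490 exon bases on opposite strands, which are 4.79% of the FADS1 exon bases and 4.44% of those of FADS2. Whether the counting used strand is not given in the sources used here, so reads from this stretch cannot be told apart. FADS2 also shares 49 exon bases with FEN1, and the microRNA genes inside FADS1 (MIR1908) and ELOVL1 (MIR6734) had 0 counts in all libraries. These 0 counts do not show how reads from the shared bases were counted. FADS3 shares no exon base with another gene.

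**Figure D1:**
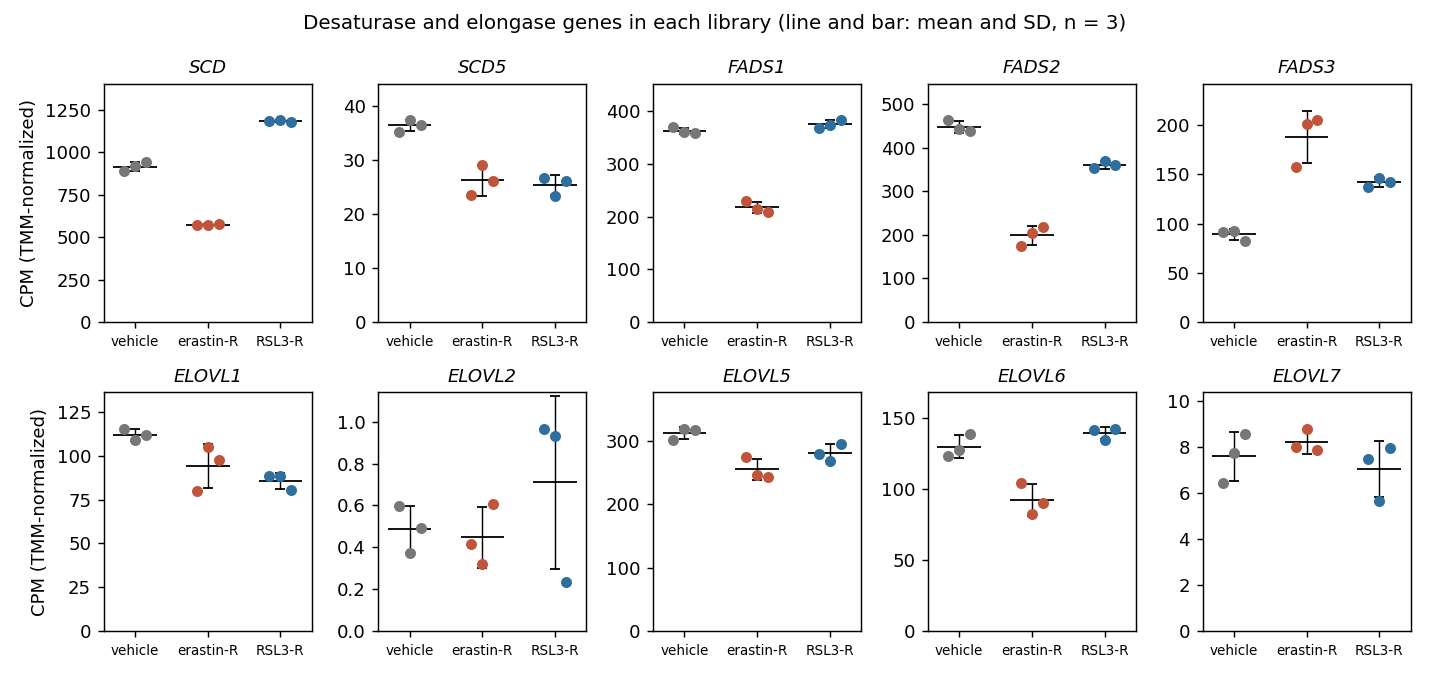
TMM-normalized CPM (y axis, from 0, a separate scale for each gene) of the 10 genes in the 3 vehicle, 3 erastin-R and 3 RSL3-R libraries. Points are libraries, and lines and bars are the mean and SD. SCD lies at 571.9 to 575 CPM in erastin-R and 1178 to 1190 CPM in RSL3-R cells, on either side of vehicle, and FADS3 is the gene whose treated libraries all lie above vehicle.

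ELOVL6, which extends palmitate and palmitoleate, fell in erastin-R cells. Its libraries had 123.3, 127 and 138.9 CPM in vehicle, 104.3, 82.01 and 89.85 CPM in erastin-R, and 141.5, 134.2 and 142.3 CPM in RSL3-R cells. The erastin-R libraries were the lowest 3, and vehicle and RSL3-R overlapped. ELOVL6 changed by -0.49 ± 0.08 (log2, SE) in erastin-R cells (adjusted p = 1.744e-04), and by 0.10 with a 95% interval of -0.07 to 0.28 in RSL3-R cells (adjusted p = 0.3177). RSL3-R cells exceeded erastin-R cells by 0.60 ± 0.08 (adjusted p = 4.535e-05).

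ELOVL1, which makes very long saturated and monounsaturated chains for sphingolipids, was lower in both treated conditions, and less firmly so in erastin-R cells. Vehicle libraries had 115.6, 109 and 111.9 CPM, erastin-R libraries 80.1, 104.9 and 97.51 CPM, and RSL3-R libraries 88.52, 88.44 and 80.36 CPM. All 6 treated libraries were below all vehicle libraries, and erastin-R replicate 1 was lower than every RSL3-R library. The log2 fold change was -0.39 ± 0.09 (SE) with RSL3 (adjusted p = 0.00214) and -0.25 ± 0.09 with erastin (adjusted p = 0.02372). For the latter, the adjusted p was 0.003851 to 0.07734 over the 16 alternative analyses and passed in 13, but not without vehicle replicate 1 (0.07734) or 3 (0.05242). It was -0.15 (adjusted p = 0.02696) without erastin-R replicate 1. The difference between RSL3-R and erastin-R cells was -0.13 (95% interval -0.32 to 0.05, adjusted p = 0.2172), and it passed the test at -0.24 without that library (adjusted p = 8.795e-04).

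ELOVL5, the elongase of polyunsaturated chains that works between FADS2 and FADS1, fell in erastin-R cells. Its libraries had 301.5, 319.1 and 317.4 CPM in vehicle, 274.6, 246.7 and 243.4 CPM in erastin-R, and 279.9, 268.9 and 295.3 CPM in RSL3-R cells. All 6 treated libraries lay below vehicle, and the treated conditions overlapped through erastin-R replicate 1. The log2 fold change was -0.29 ± 0.06 (SE) in erastin-R cells (adjusted p = 0.001271) and -0.15 in RSL3-R cells, where it did not pass the test (95% interval -0.29 to -0.02, adjusted p = 0.05855). The difference between RSL3-R and erastin-R cells was 0.14 (95% interval 0.01 to 0.28, adjusted p = 0.07536). Without erastin-R replicate 1 these latter values were -0.16 (adjusted p = 0.002164) and 0.20 (adjusted p = 7.145e-04), both past the test.

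ELOVL7 and ELOVL2 passed no test, and little can be read for ELOVL2 at its depth. ELOVL7, which also lengthens saturated chains, had 91 to 139 counts, and its log2 fold changes were 0.11 in erastin-R cells (95% interval -0.22 to 0.45) and -0.11 in RSL3-R cells (-0.45 to 0.23). These intervals lie within 2-fold either way. ELOVL2, the elongase of the longest polyunsaturated chains, had 4 to 15 counts in any library. The ELOVL2 interval in erastin-R cells ran from -1.29 to 1.05, so that a change of 2-fold either way was not excluded.

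Counted over the 10 members, 1 rose (FADS3), 7 fell (SCD, SCD5, FADS1, FADS2, ELOVL1, ELOVL5 and ELOVL6) and 2 did not pass the test in erastin-R cells. Among all genes tested in this comparison, 27.1% rose and 26.8% fell. With a change of at least 2-fold required in addition, 1 member was higher (FADS3) and 1 lower (FADS2), against 6.7% and 6.66% of all genes. The median log2 fold change of the members was -0.38, and that of all genes was -0.0042. In RSL3-R cells, 2 members rose (SCD and FADS3), 3 fell (SCD5, FADS2 and ELOVL1) and 5 did not pass, against 23.8% and 24.9% of all genes, which is close to the members' shares. No member passed 2-fold, where 6.02% of all genes were higher and 4.08% lower, and the medians were -0.03 for the members and 0.0052 for all genes. Both comparisons use the same 3 vehicle libraries. Without erastin-R replicate 1, 1 member rose and 7 fell with erastin, and 2 rose and 4 fell with RSL3, where ELOVL5 was the addition. Calls grew over all genes too in this setting, to 29.6% higher and 30.3% lower with erastin and 27.4% higher and 29.2% lower with RSL3.

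Between the treated conditions, 4 members were higher in RSL3-R cells (SCD, FADS1, FADS2 and ELOVL6), 1 was lower (FADS3) and 5 did not pass, where 22.3% of all genes were higher and 26.9% lower. SCD was the 1 member past 2-fold, against 6.86% of all genes higher and 3.48% lower by that rule. With quantile normalization SCD came to 0.98 on the log2 scale, short of 2-fold, and still passed the test. The members' median log2 difference was 0.37, and that of all genes -0.02. When erastin-R replicate 1 was left out, 5 members were higher and 2 lower, with ELOVL5 and ELOVL1 added, and over all genes the shares grew as well, to 27.1% higher and 30% lower. The CPM of the 10 members together were 2397 to 2432 in vehicle, 1626 to 1672 in erastin-R and 2590 to 2615 in RSL3-R libraries, of which SCD made 37.12 to 38.69%, 34.38 to 35.32% and 45.03 to 45.85%.

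**Figure D2:**
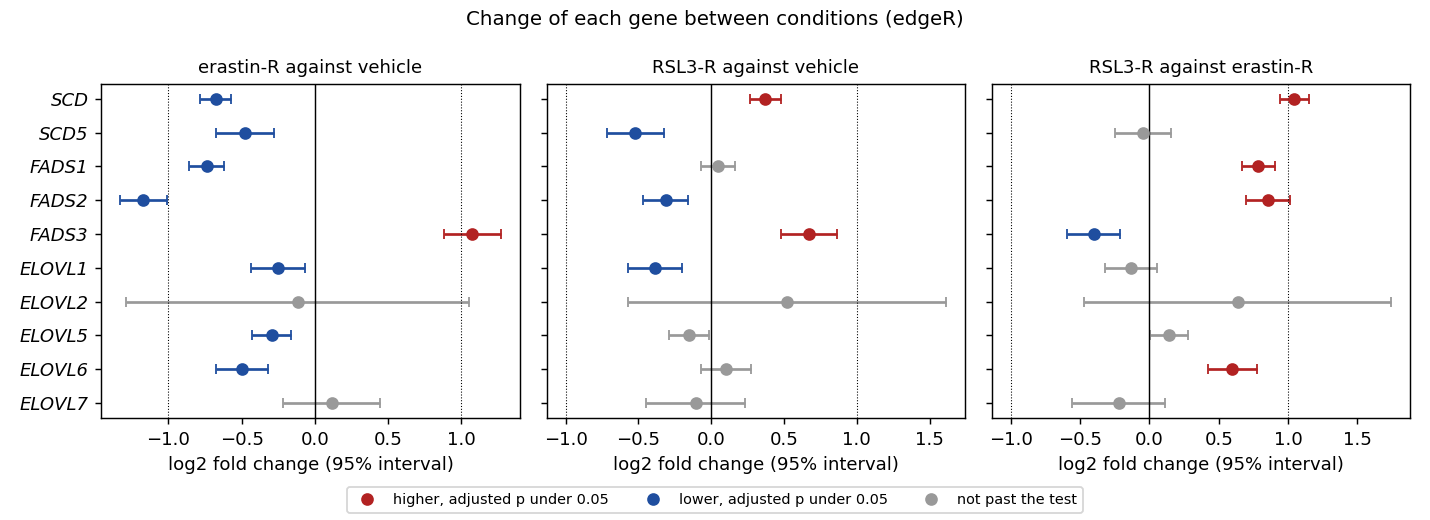
Log2 fold change (x axis) of each gene in the 3 comparisons, with 95% intervals from edgeR. Colour shows whether the adjusted p was under 0.05 and in which direction, and dotted lines mark 2-fold. In erastin-R cells 8 genes lie left of 0, of which 7 passed the test, and FADS3, which passed, and ELOVL7, which did not, lie right of it, and against erastin-R cells SCD lies at 1.05 in RSL3-R cells.

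To compare levels between genes, the deposited FPKM values were used, which divide by the length of all exons of a gene. In vehicle cells the order was SCD (169.1 ± 5.018 FPKM, SD, n = 3), ELOVL5 (81.15 ± 2.586), ELOVL1 (44.28 ± 1.295), FADS2 (40.15 ± 1.193), FADS1 (35.06 ± 0.5664), ELOVL6 (17.6 ± 1.139), FADS3 (14.04 ± 0.8859), SCD5 (8.4 ± 0.2508), ELOVL7 (1.639 ± 0.2353) and ELOVL2 (0.1205 ± 0.02794). The library ranges of neighbours in this order did not overlap. SCD and ELOVL5 stayed first and second, and SCD5, ELOVL7 and ELOVL2 last, in all 3 conditions.

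FADS3 moved from rank 7 in vehicle to rank 4 in erastin-R cells (29.49 ± 4.246 FPKM), above FADS1 (20.94 ± 0.9354) and FADS2 (17.79 ± 2.084), and its range overlapped that of ELOVL1 (37.05 ± 5.106). In RSL3-R cells FADS1 held rank 3 (36.37 ± 0.808), and ELOVL1 (33.95 ± 1.788) and FADS2 (32.45 ± 0.7528) followed with overlapping ranges. This order depends on gene length. All exons of FADS2 come to 11026 bases and its principal transcript to 3630, those of FADS1 to 10230 and 4525, and those of FADS3 to 6283 and 1779, whereas SCD has 5362 by either measure. Divided by the principal transcript instead, FADS2 ranked second in vehicle cells (123.2 ± 3.83 CPM per kilobase) and FADS3 second in erastin-R cells (105.6 ± 14.8). SCD was first in each condition by both measures.

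**Figure D3:**
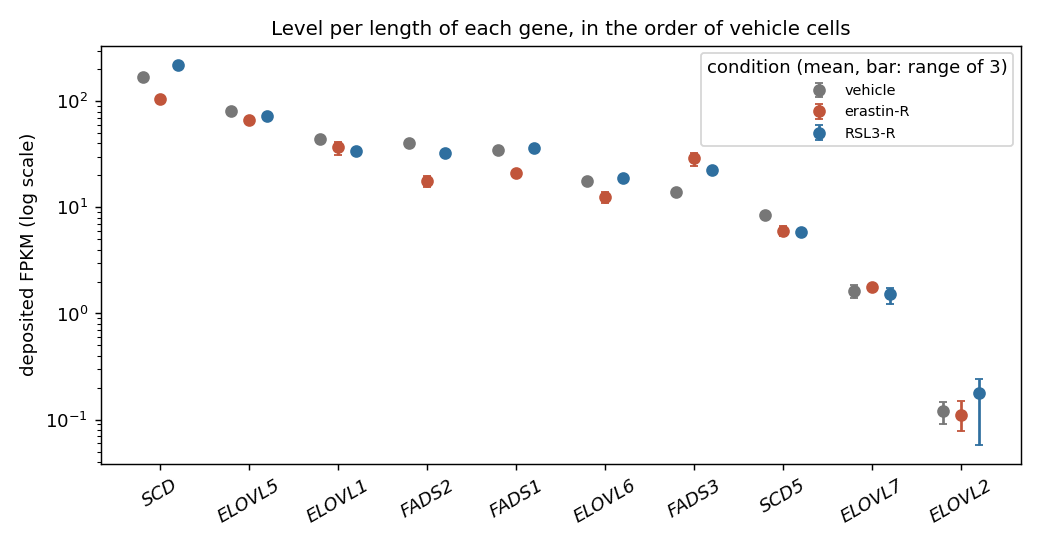
Deposited FPKM (y axis, log scale) of the 10 genes, ordered by their level in vehicle cells. Points are means of 3 libraries and bars their range. SCD is highest in each condition at 105.5 to 219.3 FPKM, and FADS3 crosses above FADS1 and FADS2 in erastin-R cells.

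The ratio of 2 enzymes within a library does not depend on how libraries are scaled. Its size depends on the gene lengths used, whereas its log2 differences between conditions do not. The 5 ratios were compared over the 3 conditions by an exact permutation test without direction, on the log2 scale over all 1680 labellings, whose smallest possible p is 0.003571, and adjusted over the 5. The ratio of SCD to FADS2 was 3.951 to 4.428 in vehicle, 5.438 to 6.787 in erastin-R and 6.624 to 6.932 in RSL3-R libraries (exact p = 0.01071, adjusted p = 0.01786). It was thus higher in all 6 treated libraries than in vehicle, although SCD itself fell with erastin and rose with RSL3. Per principal transcript, mean SCD and FADS2 were nearer each other, at 170.9 and 123.2 CPM per kilobase in vehicle cells. They were 107 and 54.8 in erastin-R cells and 221 and 99.32 in RSL3-R cells. SCD to FADS1 was 4.593 to 5.014, 4.776 to 5.249 and 5.866 to 6.158 in the same order (exact p = 0.01429, adjusted p = 0.01786), with vehicle and erastin-R overlapping.

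FADS1 to FADS2 was 0.8601 to 0.8832 in vehicle, 1.036 to 1.421 in erastin-R and 1.09 to 1.147 in RSL3-R libraries (exact p = 0.03214, adjusted p = 0.03214). FADS2 was the higher of the pair per length in every vehicle library and the lower in every treated library. Per principal transcript, FADS2 had the higher mean of the pair in all 3 conditions (54.8 against 48.03 CPM per kilobase in erastin-R cells). The adjusted p was 0.05357 without vehicle replicate 1 or without vehicle replicate 2. ELOVL6 to ELOVL5 was 0.2081 to 0.2287, 0.1737 to 0.1985 and 0.2519 to 0.2642 in vehicle, erastin-R and RSL3-R libraries, with no overlap (exact p = 0.003571, adjusted p = 0.008929). SCD to SCD5 was 19.63 to 20.59 in vehicle, 15.71 to 19.59 in erastin-R and 35.61 to 40.76 in RSL3-R libraries (exact p = 0.003571, adjusted p = 0.008929).

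**Figure D4:**
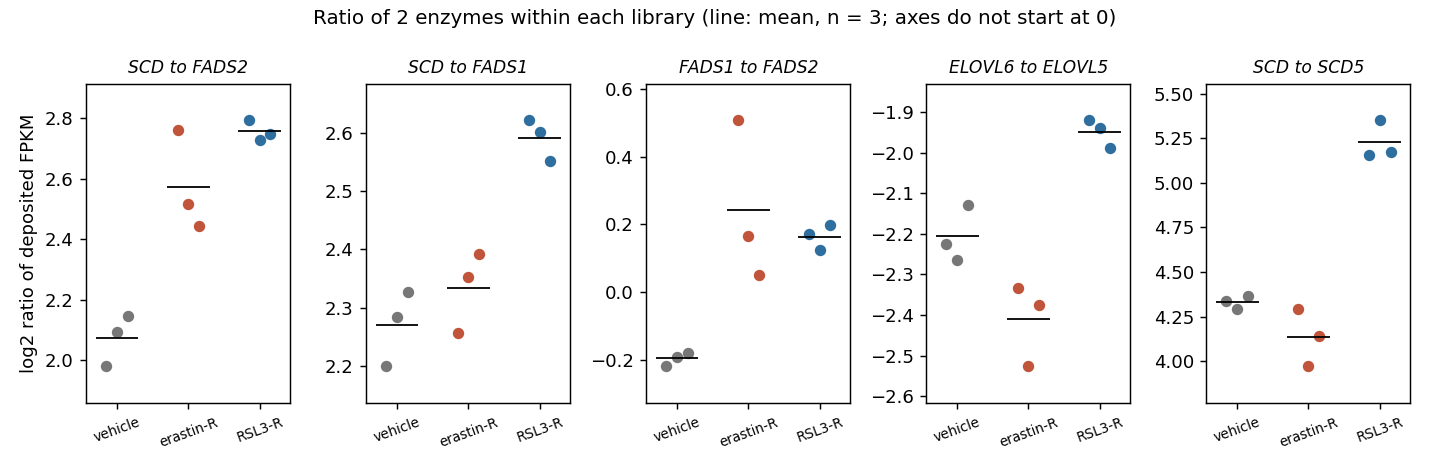
Log2 ratio of deposited FPKM (y axes, separate scales that do not start at 0) of 5 pairs of genes in each library, with a line at the mean of the 3 libraries of a condition. SCD to FADS2 lies at 5.438 or above as a ratio in all treated libraries and at 4.428 or below in vehicle, and the erastin-R replicate 1 point is the highest of its condition for FADS1 to FADS2.

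Across the 9 libraries the log2 CPM of FADS1 and ELOVL6 correlated at r = 0.9491, SCD and FADS1 at 0.9468, SCD and ELOVL6 at 0.9284 and FADS1 and FADS2 at 0.9206. FADS3 correlated at r = -0.9464 with ELOVL5 and at -0.8369 with FADS2. These values describe 9 points in 3 clusters, the conditions, and are given without a test. Among all genes tested, those most like SCD were LTBP1 (r = 0.9969), SLCO4C1 (0.9961) and CDCP1 (0.9952). Those most like FADS2 were P2RY2 (0.995), TNS3 (0.9942) and SPDEF (0.9941), and those most like ELOVL5 were SP110 (0.9834), ALKBH8 (0.983) and NSL1 (0.9826).

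Other members of these families were mostly at or near 0. ELOVL3 had 1 to 13 counts, DEGS2 0 to 2, and ELOVL4 and FADS6 had 0 in all libraries, which allows up to 0.1947 CPM. DEGS1, which desaturates dihydroceramide, fell by 0.72 (± 0.06 SE) on the log2 scale in erastin-R cells (edgeR adjusted p = 3.526e-07) and by 0.33 ± 0.06 in RSL3-R cells (adjusted p = 4.102e-04).

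Of 6 genes for the other steps of the elongation cycle, 5 were tested, of which 1 rose and 3 fell in erastin-R cells and 2 rose and 2 fell in RSL3-R cells, at medians of -0.23 and -0.15. The shares of all genes tested were 27.1% higher and 26.8% lower with erastin and 23.8% and 24.9% with RSL3. Leaving out erastin-R replicate 1 gave 1 rise and 3 falls with erastin and 2 rises and 3 falls with RSL3. In that setting 29.6% of all genes rose and 30.3% fell with erastin, and 27.4% rose and 29.2% fell with RSL3. HACD2, a dehydratase of the cycle, fell in both (log2 -0.58 and -0.90), as did TECR, the final reductase (-0.23 and -0.40). HSD17B12, the ketoacyl reductase, fell with erastin (-0.48) and rose with RSL3 (0.30). Cytochrome b5 and its reductases pass electrons to the desaturases, and of these 6 genes 2 fell with erastin and 4 with RSL3 while none rose (medians -0.10 and -0.30), where 26.8% and 24.9% of all genes fell. CYB5B changed by -0.98 and -0.92, CYB5A by -0.22 and -0.58, and CYB5R3 by -0.37 in RSL3-R cells and -0.06 in erastin-R cells, where it did not pass (adjusted p = 0.4813). CYB5A no longer passed in erastin-R cells without replicate 1 of that condition (-0.16, adjusted p = 0.08832), which left CYB5B as the 1 gene that fell, against 30.3% of all genes in that setting.

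Among 14 tested genes of 15 that regulate these enzymes, 5 rose and 3 fell in erastin-R cells and 9 rose and 1 fell in RSL3-R cells (medians 0.13 and 0.32). Over all genes 27.1% rose and 26.8% fell with erastin, and 23.8% rose and 24.9% fell with RSL3. PPARA, a fatty acid receptor that induces lipid oxidation genes, rose in both (1.17 and 0.90), as did MID1IP1, which promotes the activity of acetyl-CoA carboxylase (1.09 and 0.91), and PPARG, the adipogenic receptor (0.90 and 0.50). The following genes were chosen after their values were seen. MLXIPL, the carbohydrate response factor, moved in the directions of SCD, with -0.64 for erastin (adjusted p = 1.199e-04) and 0.78 for RSL3 (adjusted p = 1.581e-05). SREBF1, which encodes an SREBP factor, did not pass in either, at -0.02 (adjusted p = 0.9136) and 0.22 (adjusted p = 0.1374). Other listed genes of the SREBP factors and their processing passed as higher in RSL3-R cells. These were SREBF2 (0.35), INSIG1 (0.39), MBTPS1 (0.42) and MBTPS2 (0.29), and with erastin they did not pass (0.16, 0.10, 0.08 and -0.12). INSIG2 fell in both (-0.40 and -0.57). SCAP rose with erastin (0.23) and did not pass with RSL3 (-0.14). Without erastin-R replicate 1, SREBF1 passed in both, at 0.15 (adjusted p = 0.006369) and 0.21 (adjusted p = 8.112e-05). SREBF2 and INSIG1 then passed with erastin too (0.24 and 0.18), and SCAP passed with RSL3 (-0.14). Of the 14 genes 9 rose and 2 fell with erastin and 10 rose and 2 fell with RSL3 in that setting. There 29.6% and 27.4% of all genes rose and 30.3% and 29.2% fell.

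All 7 genes that supply acetyl and malonyl units and reducing power were tested, of which 1 rose and 4 fell with erastin and 3 rose and 2 fell with RSL3 (medians -0.15 and 0.11), against 27.1% and 26.8% of all genes with erastin and 23.8% and 24.9% with RSL3. ACACB, the mitochondrial acetyl-CoA carboxylase, fell in both (-0.97 and -1.47) and ME1, the malic enzyme that yields NADPH, rose in both (0.60 and 0.55). ACSS2, which makes acetyl-CoA from acetate, changed by -0.15 with erastin and by 0.97 with RSL3, past the test in each, but without erastin-R replicate 1 it did not pass with erastin (-0.12, adjusted p = 0.0549), where 2 genes then rose and 4 fell. In the same setting 4 rose and 3 fell with RSL3, and 59.9% and 56.6% of all genes were called with erastin and RSL3. Of 11 genes that activate acyl chains or place them in lipids, 10 were tested, of which 1 rose and 5 fell with erastin and 2 rose and 4 fell with RSL3 (medians -0.10 and -0.17), against the same shares of all genes. MBOAT1, a lysophospholipid acyltransferase, fell by 1.27 on the log2 scale in both, and LPCAT3, which places polyunsaturated chains in phospholipids, changed by -0.42 and -0.48. Leaving out erastin-R replicate 1, 2 of these genes rose and 5 fell in each comparison, with the shares of all genes at 29.6% and 30.3% for erastin and 27.4% and 29.2% for RSL3. MBOAT1 then changed by -1.59 with erastin and by -1.28 with RSL3, so its equal fall in both depends on that library. ACSL5, an acyl-CoA synthetase, fell in erastin-R cells (-0.88) and stood at 0.0009 in RSL3-R cells, which did not pass (adjusted p = 0.9936). CNR1, which encodes the cannabinoid receptor that the study targets, had 0 to 5 counts in the 9 libraries and was not tested.

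**Figure D5:**
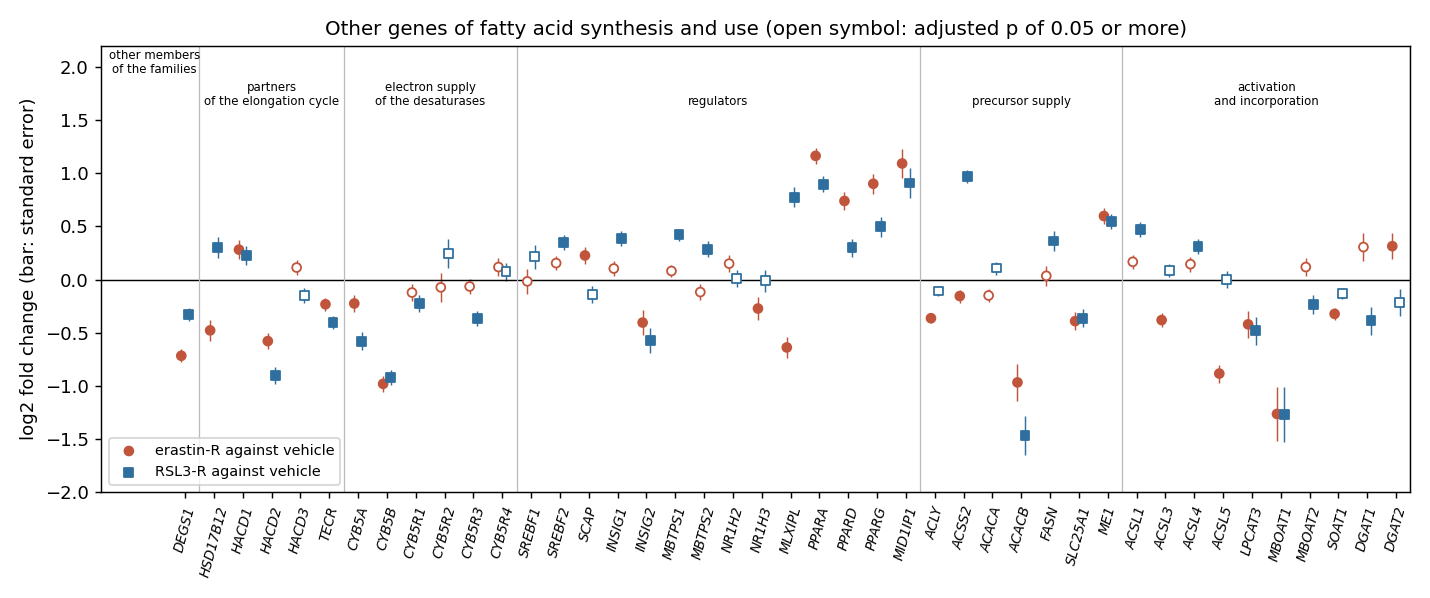
Log2 fold change against vehicle (y axis, bars are standard errors) of the tested genes of 6 lists, with circles for erastin-R and squares for RSL3-R cells and open symbols where the adjusted p was 0.05 or more. CYB5B lies at -0.98 and -0.92, and MLXIPL lies at -0.64 and 0.78.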

How the data were processed

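The 9 poly(A)-selected libraries of MDA-MB-231 cells were assigned to conditions from their labels. The authors deposited a read count per gene for each library, and also FPKM values per gene, called RPKM in their methods, from uniquely mapped reads in exons. The submitters' processing notes name HISAT2 2.0.5 and featureCounts 1.5.0-p3. Whether counting used strand is not given in the sources used here. Start and end matched GENCODE 29 (GRCh38) for 58724 of 58735 genes.

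Raw counts were fitted with edgeR 4.0.16 in R 4.3.3, using TMM, filterByExpr and the quasi-likelihood test in 1 model of all 9 libraries without a covariate. The study's own test needs other input than these files. Benjamini-Hochberg adjustment ran over 16188 genes, and an adjusted p under 0.05 was called. Depth was 15405102 to 17273464 counts per library, and the common dispersion gave a coefficient of variation of 8.556% between replicates. FPKM served for orders and ratios, the latter with an exact permutation test. Correlations used log2 CPM with a prior count of 3. The scripts were tested on simulated data with few changed genes, a single dispersion for all genes and no outlying library. These data differ in each of these points, so that test covers the code only. Alternatives were DESeq2 1.42.0, quantile normalization with limma 3.58.1, RLE factors, no filter or a mean FPKM of at least 1, a model of 2 conditions, a replicate block and leaving out each library. The order by principal transcript and the lists without erastin-R replicate 1 were added after the data were seen.

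The members, lists and tests were chosen with earlier results of these data known. Named are all 10 members, up to 3 genes of each list with the largest change against vehicle past the test, CNR1, and the 3 genes most correlated with each of SCD, FADS2 and ELOVL5, with exceptions stated. RefSeq promoter windows were found for all 10 members. Python 3.11.15 and matplotlib 3.10.9 drew the figures.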

Additional observations from a re-analysis of the deposited data

Results flagged for a closer look

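SCD was singled out because its changes in the treated conditions lay on opposite sides of vehicle and the difference between them passed its own test. The log2 difference between RSL3-R and erastin-R cells was 1.0465 (edgeR quasi-likelihood test, adjusted p = 3.165e-09), with all 3 RSL3-R libraries above and all 3 erastin-R libraries below the vehicle libraries. Over the 16 alternative analyses it ranged from 0.98 to 1.09.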

How the results depend on the processing

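Of 474 recomputed log2 fold changes of the members, 456 kept their direction and their side of the threshold. In 3, all of ELOVL1 in erastin-R cells, the call was lost: without vehicle replicate 1 or 3 (adjusted p = 0.07734 and 0.05242) and in a model of only 2 conditions (0.0525). In 9, of ELOVL5 and ELOVL1, a call was gained. The 6 that changed sign had not passed the test in any analysis. With quantile normalization SCD5 was 0.0252 between the treated conditions and 0 members passed 2-fold there, since SCD came to 0.98. Leaving out each library gave SCD5 -0.1232 to 0.0315 in that comparison, ELOVL2 -0.3946 to 0.0684 in erastin-R cells and ELOVL7 -0.2132 to 0.0259 with RSL3. For the ratio of FADS1 to FADS2 the adjusted p was 0.01339 to 0.05357 when each library was left out, with 0.05357 without vehicle replicate 1 or 2. With 8 libraries there are fewer labellings. Other causes were not tested. ELOVL2 was not tested with a mean FPKM of at least 1 or in models of 2 conditions.

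The replicate numbers did not pair the libraries: deviations from the condition means correlated at -0.09043 to 0.05181 over the 9 pairs with the same number (mean -0.004947), against a mean of 0.002556 over the other 18 pairs, and 2 of 9 libraries were closest to their own number. With the replicate block, 8 members were called in erastin-R cells, 5 in RSL3-R cells and 5 between the treated conditions, as without it, where 52.1%, 46.4% and 47% of all genes were called, so that 5 of 10 is about the background share.

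Depth limits ELOVL2, with 4 to 15 counts, and precision rests on 3 libraries per condition.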
